A study of Mus musculus with 6 samples.

Results

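Cells with Myog RNA and little contractile RNA were examined in 6 cultured populations of mouse muscle-derived stem/progenitor cells (MDSPCs). A cell barcode was kept with 1000 or more unique molecular identifiers (UMIs, tags that count each captured RNA molecule once) and under 15% of UMIs from mitochondrial genes. A kept cell was a member with 2 or more Myog UMIs and with under 20 UMIs per 10000 from Myl4, Tnnc1, Tnnc2, Actc1, Acta1, Myh3 and Mylpf together. There were 3964 members among 61675 kept cells, or 6.43%. They were set against the 47882 kept cells of the same populations with no Myog UMI (Myog-zero cells) and against the 5924 cells with 2 or more Myog UMIs at or above the contractile limit (contractile-high cells). A further 3905 cells had 1 Myog UMI. Most members held some contractile RNA, so the rule marks a low level and not its absence.

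MDSPCs are slowly adhering cells won from dissociated skeletal muscle by repeated transfer of the cells that have not attached. The series held 3 populations from young mice (Y1-1, PtC5 and FT-QU, young 1 to 3) and 3 from old mice (O1-1, NA-f2 and NA-f3, old 1 to 3). All were grown in proliferation medium with fetal bovine and horse serum and chick embryo extract, with no other treatment in the labels, and were profiled by droplet-based 3′ single-cell RNA sequencing. Genotype, strain, sex and exact age of the mice, and whether 1 or several mice gave a population, are not in the labels, and values are given in the order young 1, 2, 3, old 1, 2, 3.

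Myogenin, the product of Myog, is a basic helix-loop-helix (bHLH) transcription factor that commits a myoblast to differentiate. Like its relative MyoD it pairs with an E protein, binds short DNA sites called E boxes and works with MEF2 factors on muscle genes. In textbook order Myog comes on first, then Cdkn1a and exit from the cell cycle, and then the contractile proteins and cell fusion.

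The DNA directly before the RefSeq start of Myog itself and of 3 genes that rose in the members is shown. The 3 were chosen with their windows known, as examples that hold an E box of the form CAGCTG, which most windows of risen genes do not. Each line is the 250 bases before the RefSeq gene start (build GRCm38.p6, written 5′ to 3′ on the gene's strand). Capitals mark any E box of the form CANNTG, which reads the same form on both strands. Chrng encodes the fetal acetylcholine receptor gamma subunit, Pgam2 the muscle phosphoglycerate mutase, and Klhl41 a sarcomere-associated Kelch protein.
Myog, chr1:134289754-134290003, strand +: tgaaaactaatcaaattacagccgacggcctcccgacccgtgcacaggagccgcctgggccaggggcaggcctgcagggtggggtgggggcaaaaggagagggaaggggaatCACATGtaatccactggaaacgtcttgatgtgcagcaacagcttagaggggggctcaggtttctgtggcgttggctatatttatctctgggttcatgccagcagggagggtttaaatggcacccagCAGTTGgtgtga
Chrng, chr1:87205561-87205810, strand +: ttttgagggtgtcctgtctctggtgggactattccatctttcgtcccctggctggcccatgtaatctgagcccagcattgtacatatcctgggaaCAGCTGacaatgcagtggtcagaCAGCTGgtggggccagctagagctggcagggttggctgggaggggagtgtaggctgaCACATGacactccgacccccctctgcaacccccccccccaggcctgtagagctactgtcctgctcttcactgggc
Pgam2, chr11:5803797-5804046, strand -: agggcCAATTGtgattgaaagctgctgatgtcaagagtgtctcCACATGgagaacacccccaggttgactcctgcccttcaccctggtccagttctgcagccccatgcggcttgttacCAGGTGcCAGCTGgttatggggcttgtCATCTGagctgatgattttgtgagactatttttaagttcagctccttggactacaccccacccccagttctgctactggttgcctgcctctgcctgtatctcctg
Klhl41, chr2:69669870-69670119, strand +: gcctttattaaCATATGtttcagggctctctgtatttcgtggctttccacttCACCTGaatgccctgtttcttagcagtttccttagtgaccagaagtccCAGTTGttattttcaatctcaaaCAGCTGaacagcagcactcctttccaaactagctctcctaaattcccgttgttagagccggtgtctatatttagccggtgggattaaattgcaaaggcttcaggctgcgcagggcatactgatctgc

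The Myog window held E boxes with their first bases 138 and 12 bases before the start, but no CAGCTG. Chrng held CAGCTG, an E box that MyoD and myogenin bind well, at 155 and 132 bases before its start. Pgam2 held it at 125 and Klhl41 at 127, where it also counted as CANNTG. Over RefSeq windows of 300 bases (250 before and 50 after the start), 24.7% of 571 windows of genes that rose in the members held CAGCTG. The share was 13.0% of 463 windows of genes that fell, 15.5% of 12960 windows of all genes tested and 16.3% of 32851 windows in the table. The wider form CANNTG was in 70.2% of windows of risen genes, 64.8% of fallen genes, 63.6% of genes tested and 72.3% of all windows. Most windows of each set therefore held a marked E box. In the GENCODE annotation of the same build Chrng starts upstream of this window, at position 87204657 of chromosome 1, so there the window lies inside the gene and the distances hold only for the RefSeq start. Myog starts there at 134289989, inside its window, which puts its E box at 12 within the gene. Pgam2 starts there at 5803733, downstream of its window, so the distances of both also hold only for RefSeq. A match is a letter pattern and not a measured binding site. RefSeq windows were matched by symbol for 392 of the 518 genes that rose and 348 of the 467 that fell.

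The members were spread very unevenly over the populations. They numbered 66, 1166, 439, 18, 846 and 1429, which was 0.761, 10.8, 4.07, 0.177, 9.7 and 11.4% of the kept cells. Young 1 and old 1 had few, and old 3 alone gave 36.0% of all members. Young 1 and old 1 were also the 2 populations counted with the older software version and the shorter gene list, so the gene list and a low share cannot be told apart. The shares averaged 5.21% ± 5.11 (SD, n = 3) in young and 7.09% ± 6.05 (SD, n = 3) in old populations, a difference of 1.88 points (exact two-sided permutation test, p = 0.8, smallest possible 0.1). The difference turned to -0.342 points without young 1 and to -0.271 without old 3.

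Members were the smaller or the larger part of the Myog-positive cells depending on the population. Of the cells with 2 or more Myog UMIs, 24, 54.5, 83.1, 38.3, 63.7 and 25.7% were members. In young 2, young 3 and old 2 most of these cells lay under the contractile limit, and in young 1, old 1 and old 3 most lay over it. Contractile-high cells made up 2.41, 9.02, 0.825, 0.286, 5.52 and 33% of the kept cells. The rule's own values are a description only. Members had a median of 3.5, 5, 3, 3.5, 6 and 4 Myog UMIs and contractile-high cells 12, 49, 30, 24, 37 and 30. No contractile UMI at all was seen in 757 members (19.1%), and only 2.31% of the members of old 3 were of this kind against 55.1% in young 3. Just outside the rule, 134, 1014, 560, 63, 604 and 1258 cells had exactly 1 Myog UMI under the limit, against 21, 269, 161, 7, 164 and 443 members with exactly 2. At the contractile limit, 5, 99, 15, 0, 47 and 212 members lay between 15 and 20 per 10000 and 8, 79, 2, 2, 30 and 194 excluded cells between 20 and 25.

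**Figure D1:**
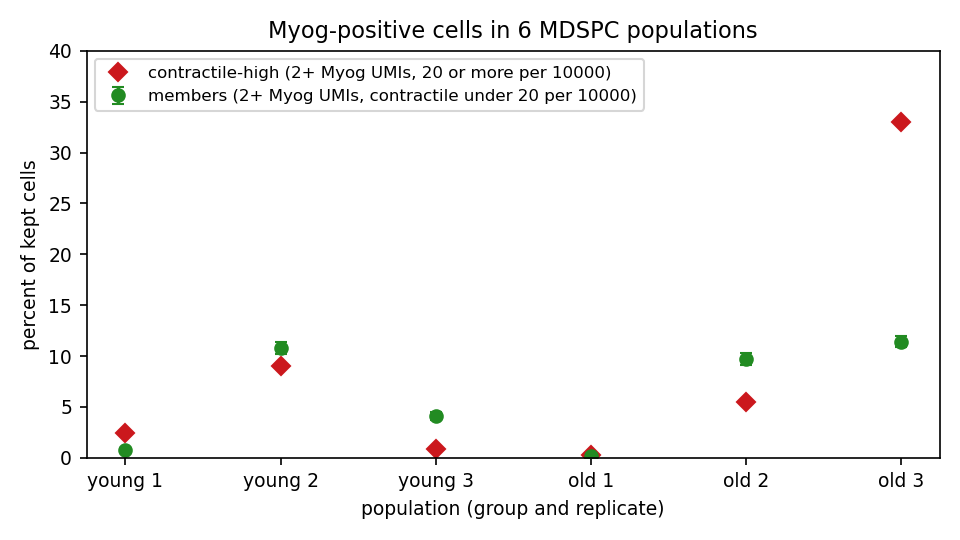
Percent of kept cells (vertical axis) that were members (circles, with 95% Wilson intervals that cover counting error only) or contractile-high cells (diamonds) in each of the 6 populations. Members run from 0.177% in old 1 to 11.4% in old 3, and contractile-high cells reach 33.0% in old 3.

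Depth and free RNA could enter a class defined by 2 UMIs, and their values were as follows. Kept cells held medians of 13001 to 19951 UMIs by population. Members had a median of 11452, 15627, 16583, 11208, 20136 and 12974 UMIs and Myog-zero cells 13757, 16546, 15577, 13505, 19702 and 12901, with no common direction. Barcodes above 2 times their population's median made up 19.7, 9.69, 12.1, 11.1, 1.18 and 10.1% of members and 7.81, 4.16, 6.99, 5.83, 1.55 and 4.48% of Myog-zero cells. Doublets were not removed. Barcodes under 1000 UMIs can hold free RNA, debris or shallow cells, which were not told apart. These barcodes carried 1.08, 1.3, 1.92, 2.11, 0.992 and 3.09 Myog UMIs per 10000, against 3.23, 5.39, 3.63, 6.23, 5.32 and 4.22 in members. All kept cells together carried 0.284, 3.39, 0.344, 0.0625, 1.75 and 9.22, which is less than the shallow barcodes in young 1, young 3 and old 1. The contractile level of the shallow barcodes was 82.4, 20.4, 32.3, 41.4, 31 and 39.5 UMIs per 10000, above the limit of the rule in all 6. Members had 5.38, 4.19, 1.39, 2.78, 3.51 and 8.36. The rule sets both levels in members, so their distance from the shallow barcodes is a description only. The part of free RNA in the members' contractile and fusion RNA was not tested. Old 3 stood apart: its Myog-zero cells carried 6.0 contractile UMIs per 10000, against 0.186 to 0.916 in the other 5. Any pair of libraries shared 23 to 35 barcodes, of at least 8674 kept cells each.

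The label was checked on Myod1, its second marker, which the rule does not use. Myod1 encodes MyoD, the factor that opens the muscle program and acts before myogenin. Its level in members was 264, 654, 183, 569, 844 and 1033 CPM (UMIs of the gene per 1000000 UMIs, from the summed counts of a class). In Myog-zero cells it was 44.3, 375, 34, 60.03, 376 and 730.0 CPM. Members lay above the Myog-zero cells of their own population in 6 of 6 cases, with the largest ratio in old 1 and the smallest in old 3. The fitted log2 difference over 5 populations was 1.44 ± 0.35 (SE), adjusted p = 0.063 (edgeR, with p-values adjusted by Benjamini and Hochberg's method over all genes tested), which did not pass 0.05. DESeq2, an alternative test, called Myod1 higher (adjusted p = 0.00333). The difference from contractile-high cells was -0.52 ± 0.27 (SE), adjusted p = 0.207 by the same edgeR fit, and did not pass. Summed defining markers of endothelial, immune, glial and fat cells were 1.29 to 33.5, 1.19 to 7.4, 0 to 18.1 and 0 to 41.6 CPM in members, against 1.91 to 75.7, 1.43 to 8.32, 0.794 to 25.5 and 1.35 to 42.3 CPM in Myog-zero cells. These ranges do not pair the populations. The fat cell list was 0, 31.2, 12.9, 7.74, 41.6 and 22.2 CPM in members and 1.35, 24.2, 11.6, 5.31, 42.3 and 15.6 CPM in Myog-zero cells. It was lower in members of young 1 and old 2 and higher in the others.

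Members were compared with Myog-zero cells in an edgeR fit on the summed counts with the population as a block, over the 5 populations with 30 or more members. Old 1, with 18, was left out of these fits and is given by its values. It enters only alternatives with a minimum of 10 members. The 8 genes of the rule were left out of the tests. Adjusted p-values say whether a difference repeated over these populations. Of 12797 genes tested, 518 were higher (4.05%) and 467 lower (3.65%) in members at an adjusted p under 0.05, with a median log2 difference of -0.03 over all genes. Without young 2 the counts were 105 and 83, and with DESeq2 879 and 786. Of the 63 genes of the naming rule and its additions that passed, between 18 (without young 2) and 52 (without old 3) still passed without 1 population. With DESeq2 60 still passed, with the contractile limit at 10 per 10000 34, and with cells of 10000 to 20000 UMIs 38. Without the population as a block 0 passed.

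The partners and brakes of the bHLH factors moved in both directions. In the list of Myod1 relatives and E proteins, 2 of 6 genes rose and 1 fell, with a median log2 difference of 0.27. Without young 2 the counts were 1 and 0, and without young 3 or old 3 none fell. Both that rose encode E proteins, the partners of MyoD and myogenin: Tcf4 by 0.47 ± 0.07 (SE), adjusted p = 0.011, and Tcf12 by 0.31 ± 0.05 (SE), adjusted p = 0.012 in edgeR. Myf5, the early determination factor, fell by 0.34 on the log2 scale (adjusted p = 0.028, edgeR). Its level was 0, 25.6, 29.2, 15.5, 46.8 and 31.1 CPM in members and 0.00786, 38.1, 33.5, 11.9, 58.9 and 37.5 CPM in Myog-zero cells. Young 1 had next to no Myf5 in any class, and old 1 had slightly more in its 18 members.

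Of 15 tested genes listed as bHLH inhibitors, 4 rose and 1 fell, and 2 and 1 without young 2. Hes6 rose most. It is a Hes family member known to oppose Hes1 and to favour differentiation. Its level was 515, 289.7, 619, 894, 1076 and 1035 CPM in members against 82.8, 101, 256, 95.1, 436 and 689 CPM in Myog-zero cells, a log2 difference of 1.43 ± 0.27 (SE), adjusted p = 0.036 by edgeR. All 6 populations had more in members. Bhlhe41 (0.85), the E-box repressor Zeb1 (0.70) and Snai1 (0.43) rose, and Twist1, an inhibitor of MyoD, fell by 0.68 on the log2 scale. Id1, which traps E proteins and was looked up after its values were seen, was 296, 742, 729.7, 429.6, 855 and 1219 CPM in members against 174, 473, 560.4, 291, 736 and 1181 CPM in Myog-zero cells, higher in all 6, and did not pass (0.39 ± 0.10 (SE), adjusted p = 0.054, edgeR; DESeq2 adjusted p = 0.00826).

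Among progenitor markers, 3 of 15 fell and 1 rose, with a median of -0.10. The falls were Cd34, Egfr and Myf5, which was already counted in the list of Myod1 relatives. Without any 1 population 0 (without old 3) or 1 fell, and 0 (without young 2) to 2 (without old 3) rose. Pax7, the satellite cell factor, was 15.7, 49.6, 0, 11.6, 18.1 and 38.6 CPM in members and 9.8, 60.6, 0.0297, 12.2, 24.3 and 44.9 CPM in Myog-zero cells. It did not pass the test (-0.22 ± 0.11 (SE), adjusted p = 0.238, edgeR). Members of young 3 had no Pax7 count, and its Myog-zero cells had almost none. Cd34, a surface protein of progenitors, fell by 0.60 and the growth factor receptor Egfr by 1.01 on the log2 scale. Sox8, a Sox factor of satellite cells, went the other way: it was 1.85, 4.61, 3.84, 3.87, 4.89 and 3.25 CPM in members against 0.0864, 0.267, 0.0238, 0.334, 0.456 and 0.556 CPM in Myog-zero cells, a log2 rise of 3.90 ± 0.56 (SE), adjusted p = 0.016 by edgeR. Its level was low but above that of the Myog-zero cells in all 6 populations, on only 2 member UMIs in young 1 and 1 in old 1.

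Factors that work with myogenin on muscle genes came next. In the list of MEF2 and other differentiation factors, 9 of 24 genes rose and 2 fell, with a median of 0.51. Mef2c, which drives muscle genes together with the bHLH factors, was 41.6, 65, 22.4, 19.4, 89.3 and 27.2 CPM in members and 16.1, 24.4, 14.8, 8.48, 29 and 19.8 CPM in Myog-zero cells. The log2 rise was 1.09 ± 0.21 (SE), adjusted p = 0.034 in edgeR, with members higher in 6 of 6 populations, in old 1 on 5 member UMIs. Mef2a (1.01), Mef2d (0.47) and the splicing factor Celf2 (0.55) also rose. Lmod3, an actin filament nucleator, rose by 2.21, and Klhl41 and Klhl31 by 1.42 and 1.35 on the log2 scale. Eya1, a transcriptional cofactor, and the splicing factor Mbnl3 fell by 0.46 and 0.66. The number of the list that rose ran from 1 (without young 2) to 9 (without old 3), and the number that fell from 0 (without young 2) to 2.

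The 2 genes that drive myoblast fusion rose from low levels, while the fusion and membrane list as a whole did not move 1 way. Mymk encodes myomaker, a membrane protein needed for myoblasts to fuse. Its level was 37.9, 15.8, 3.84, 54.2, 37 and 57.5 CPM in members against 1.86, 1.48, 0.119, 1.76, 4.6 and 22 CPM in Myog-zero cells, a log2 rise of 2.97 ± 0.51 (SE), adjusted p = 0.029 in edgeR. Mymx encodes myomixer, its partner in the fusion pore. It was 11.1, 17.6, 4.68, 31, 8.76 and 20.3 CPM in members against 0.118, 0.69, 0.0476, 0.314, 1.04 and 5.57 CPM in Myog-zero cells, a log2 rise of 3.67 ± 0.72 (SE), adjusted p = 0.039 in edgeR. Across populations the classes overlapped: the members of young 3 lay under the Myog-zero cells of old 3 for both genes, and those of young 2 for Mymk. Within the members both genes were uneven, which is a description since the bins use the rule's own genes. Mymk was 17.2, 6.7, 0.69, 12.8 and 27.6 CPM in members with no contractile UMI and 74.9, 37.5, 39.1, 82.6 and 84.9 CPM in those at 10 to 20 contractile UMIs per 10000, in young 1, 2, 3, old 2 and old 3. Mymx was 0, 5.71, 1.38, 1.9 and 8.27 CPM and 25, 53.3, 26.1, 23.1 and 27.7 CPM in the same bins, which held 18, 239, 242, 218 and 33 and 19, 180, 21, 119 and 521 cells. Both genes were higher near the limit in all 5. Of 23 fusion and membrane genes tested, 6 rose, 2 fell and 15 were not called, with a median log2 difference of 0.03. Trim72, a membrane repair protein, Ncam1, Jam3 and Dysf made up the other rises at 1.87, 0.68, 0.53 and 0.52. The number that rose ran from 1 (without young 2) to 7 (without old 3), and the number that fell was 1 without young 3 and 0 without any other.

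Genes of the acetylcholine receptor and the nerve-muscle synapse were next. Of 11 tested, 4 rose and none fell, with a median of 0.75. Chrng was 33.3, 29.2, 20.9, 38.7, 36.9 and 40.6 CPM in members and 3.36, 10.7, 3.86, 2.41, 11.9 and 26.1 CPM in Myog-zero cells, a log2 rise of 1.67 ± 0.34 (SE), adjusted p = 0.044 in edgeR. Chrnd, the delta subunit, rose by 0.84, the receptor kinase Musk by 0.75 and the clustering protein Rapsn by 0.46. Chrna1, the alpha subunit, was higher in 5 of 5 populations but did not pass (0.89 ± 0.29 (SE), adjusted p = 0.118, edgeR; DESeq2 adjusted p = 0.00498). The number that rose ran from 1 (without young 3 or old 2) to 3 (without old 3).

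Of 30 sarcomere genes tested that the rule did not read, 10 rose in the members, none fell and 20 were not called, with a median log2 difference of 1.61. Tnnt1, slow troponin T, was 120.2, 299, 115, 290.3, 171 and 127 CPM in members, 5.34, 56.5, 11, 3.06, 40.5 and 50.5 CPM in Myog-zero cells and 387, 1177, 1281, 1360.4, 535 and 658 CPM in contractile-high cells. The rise over Myog-zero cells was 2.61 ± 0.44 (SE), adjusted p = 0.029 in edgeR. Mybph, a myosin-binding protein, and Unc45b, a myosin chaperone, rose by 3.15 and 2.63. Ttn, the titin gene, looked up after its values were seen, was 594, 1114, 33.1, 712, 1358 and 315 CPM in members and 43.9, 605, 2.31, 15.6, 258 and 177 CPM in Myog-zero cells, but did not pass (2.25 ± 0.57 (SE), adjusted p = 0.07, edgeR; DESeq2 adjusted p = 0.0016). Tcap, the titin cap, was 0, 0.922, 0.12, 0, 0.674 and 1.1 CPM in members and 0.511, 0.23, 0.101, 0.0601, 0.199 and 1.99 CPM in Myog-zero cells, with no common direction. Without any 1 population the number that rose ran from 0 (without young 2) to 19 (without old 3).

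Of 18 calcium handling genes tested, 9 rose, none fell and 9 were not called. The median was 1.68, and all 18 fitted differences were above 0. The sarcoplasmic calcium pump Atp2a1 was 3.7, 6.27, 2.52, 7.74, 5.17 and 9.32 CPM in members and 0.432, 0.839, 0.202, 0.227, 0.993 and 4.53 CPM in Myog-zero cells, a rise of 2.32 ± 0.38 (SE), adjusted p = 0.021 in edgeR. Triadin (Trdn, 2.06), Hrc (2.25) and the ion channel Tmem38a (1.82, looked up after its values were seen) are further parts of the calcium store. Among 15 energy genes 4 rose: myoglobin (Mb, 2.46), muscle creatine kinase (Ckm, 2.09), Pgam2 (2.04) and Ckb (0.79). The counts of risen calcium and energy genes were 2 and 1 without young 2, and 13 and 7 without old 3.

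**Figure D2:**
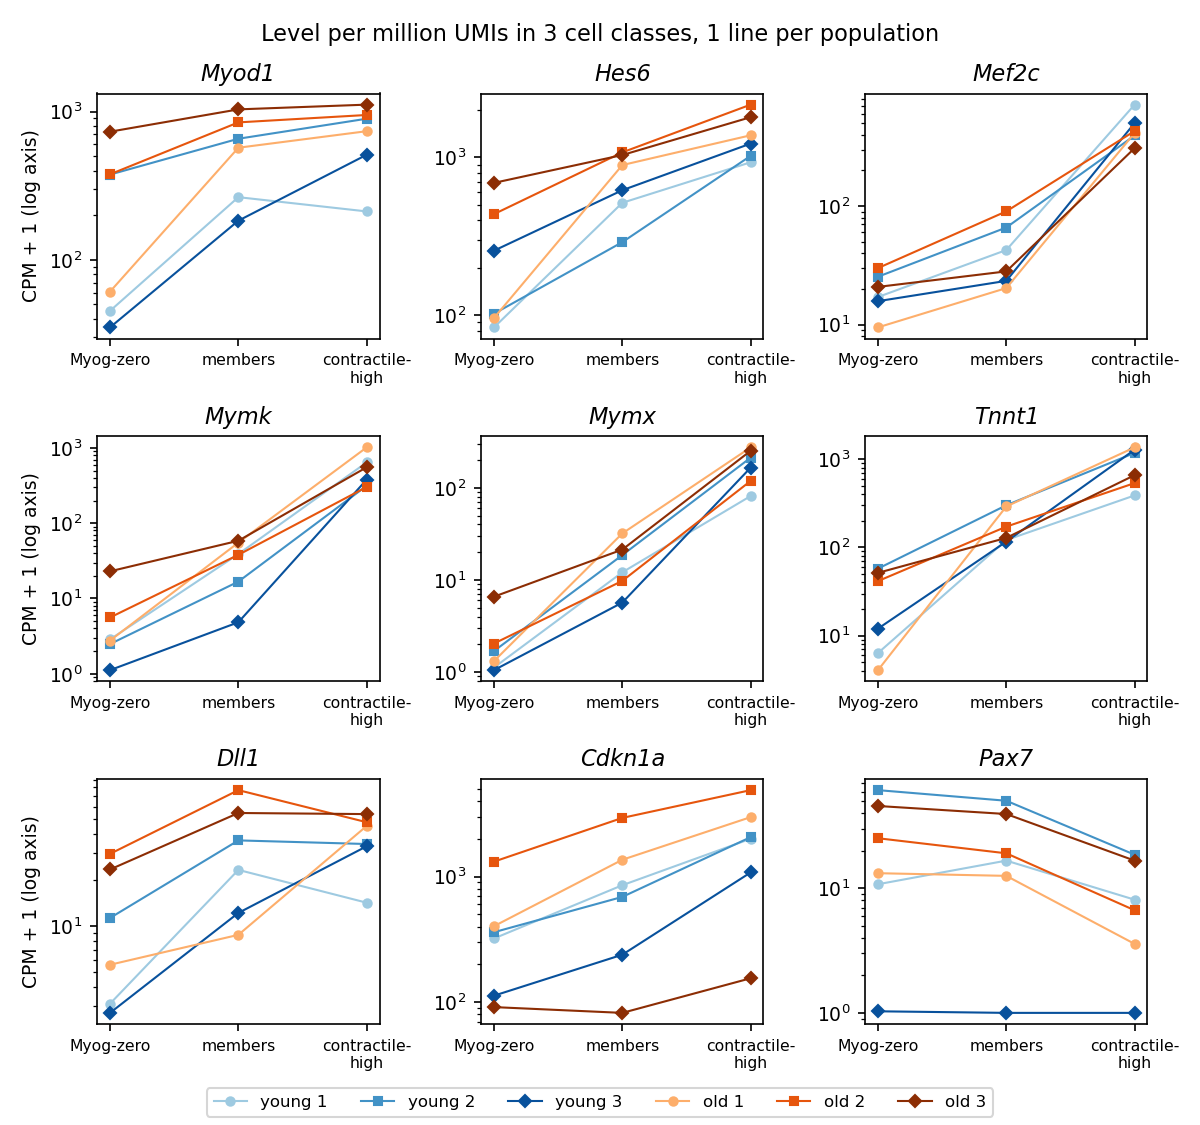
Level of 9 genes (CPM + 1, log axis) in Myog-zero cells, members and contractile-high cells, with 1 line per population. Mymk, Mymx, Mef2c and Tnnt1 are higher at each step in all 6 populations, while Dll1 is no higher in contractile-high cells than in members in 4 of 6.

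Genes of cell cycle arrest and of the cycle itself were compared next. Cdkn1a, the p21 inhibitor of cyclin-dependent kinases, was 852, 687, 238, 1358, 2925 and 81.3 CPM in members and 321, 359.6, 112, 402, 1313 and 90.4 CPM in Myog-zero cells. It was higher in members of 5 of 6 populations, and old 3 had little in any class. The fit did not pass (0.89 ± 0.22 (SE), adjusted p = 0.071, edgeR), while DESeq2 called Cdkn1a higher (adjusted p = 4.12e-04). Of 20 arrest genes tested, 5 rose and none fell: Gadd45a (0.83), the retinoblastoma gene Rb1 (0.78), the cyclin Ccnd3 (0.78), which myogenic cells keep, Bin1 (0.64) and Gadd45g (0.53). Ccnd3 was 166, 78.9, 94.8, 194, 97.3 and 177 CPM in members and 53.2, 44.8, 64.6, 50.8, 61.9 and 132 CPM in Myog-zero cells, higher in all 6. The median of the list was 0.24, and the number that rose ran from 2 (without young 1 or young 2) to 7 (without old 3). Of 17 p53 targets tested, 2 fell and 15 were not called in edgeR, with a median of -0.04. Mdm2 and Aen fell by 0.28 and 0.27 on the log2 scale, and without any 1 population at most 1 of the list was called lower.

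None of the 42 S-phase genes or 52 genes of G2 and mitosis passed in edgeR. At an unadjusted p under 0.05, 28 S-phase genes were lower and 1 higher, and 4 genes of G2 and mitosis were lower. Over all genes, 3488 of 12797 were under 0.05 in either direction, a larger share than among genes of G2 and mitosis. DESeq2 called 19 S-phase genes lower and 1 higher, and 2 of the mitosis genes lower, against 786 lower and 879 higher of all 12797. The share of mitosis genes called lower was thus also under that of all genes. The S-phase list took 7.43, 16.4, 26, 11.6, 8.48 and 19.96 UMIs per 10000 in members against 13.6, 20.4, 26.8, 24.7, 15.2 and 22 in Myog-zero cells. Members were lower in all 6 populations. Over the 5 populations the mean difference was -3.95 ± 2.57 (SD, n = 5) per 10000, lower in 5 of 5 (exact paired permutation test, two-sided, p = 0.0625, the smallest that 5 pairs allow, and 0.156 adjusted over the 5 cell measures).

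The G2 and mitosis list split the populations. It took 21.8, 53.3, 72.9, 30.4, 16.6 and 68.8 UMIs per 10000 in members against 38.6, 60.6, 68.1, 61.8, 37.8 and 67.2 in Myog-zero cells. It was lower in young 1, young 2, old 1 and old 2 and slightly higher in young 3 and old 3. The mean over 5 populations was -7.79 ± 11.2 (SD, n = 5; exact paired permutation p = 0.25, adjusted 0.312). Of 10919 cells with 10 or more UMIs of Mki67 and Top2a, the mitotic cells here, 0.43, 13, 5.99, 0.0662, 4.49 and 41.9% had 2 or more Myog UMIs. Among the other cells the share was 3.5, 21.3, 4.55, 0.631, 16.9 and 44.7%. Mitotic cells were deeper, with medians of 17325 to 26746 UMIs against 12090 to 19194. Leaving out barcodes above 2 times the median gave 491 higher and 460 lower genes against Myog-zero cells, of which 797 were among the 985 called with these barcodes.

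**Figure D3:**
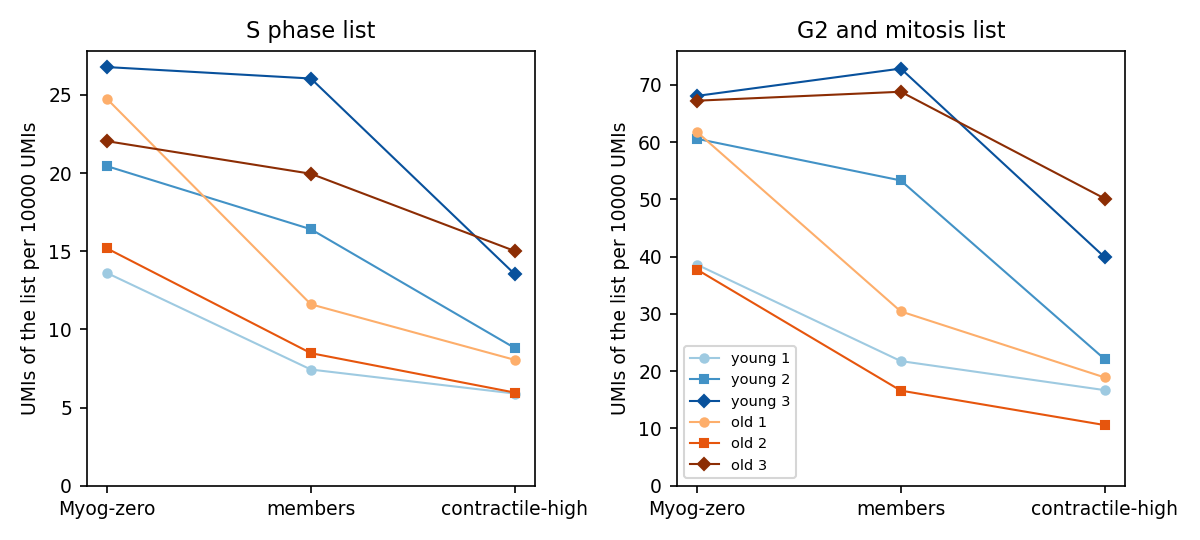
Summed UMIs of the S-phase list (left) and the G2 and mitosis list (right) per 10000 UMIs in 3 cell classes, with 1 line per population. S-phase levels are lower at each step in all 6, and G2 and mitosis levels are lowest in contractile-high cells in all 6.

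Among Notch genes, 1 of 16 rose and 1 fell, against none without young 2, and 2 rose without old 2. Dll1, a Notch ligand that differentiating cells show to their neighbours, was 22.2, 35.1, 11.1, 7.74, 75.9 and 53.5 CPM in members against 2.11, 10.3, 1.71, 4.58, 28.5 and 22.3 CPM in Myog-zero cells. Members were higher in 6 of 6 populations, in old 1 on 2 member UMIs, with a fitted log2 rise of 1.82 ± 0.28 (SE), adjusted p = 0.021 in edgeR. Jag1, another ligand, fell by 0.89. Hes1, a Notch target looked up after its values were seen, was 53.6, 92.8, 41.4, 194, 49 and 113 CPM in members and 50.3, 70.3, 23.5, 131, 77.1 and 127 CPM in Myog-zero cells, with no common direction.

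Igf1 and Igf2, insulin-like growth factors that promote muscle differentiation, rose by 1.64 ± 0.17 (SE), adjusted p = 0.0029 and by 1.45 ± 0.28 (SE), adjusted p = 0.035 in edgeR. Igf2 was 4.62, 0.0461, 158, 0, 26.7 and 47.7 CPM in members and 0.173, 0.00742, 77.3, 0, 6.24 and 21.6 CPM in Myog-zero cells, so its base level differed greatly between populations. It rested on only 5 member UMIs in young 1 and on 1 in young 2, where the Myog-zero cells also had 1. Inhba, an activin subunit, fell by 0.80 and the FGF feedback gene Dusp6 by 0.63 on the log2 scale, and 3 of 25 genes of this list rose and 2 fell. Without any 1 population 2 (without young 2 or old 3) to 4 rose and 1 (without young 1, young 2 or old 3) to 3 (without old 2) fell. Of 27 matrix genes, 5 fell and none rose: tenascin (Tnc, -0.84), Lox (-0.53), Nid1 (-0.46), Lamb1 (-0.45) and Timp1 (-0.37). The number that fell ran from 1 (without young 2) to 4, and 1 rose without old 2. The smooth muscle gene Acta2, looked up after its values were seen, was 648, 693, 624, 635, 526 and 640.0 CPM in members and 128, 266, 245, 15.9, 174 and 403 CPM in Myog-zero cells, a log2 rise of 1.45 ± 0.22 (SE), adjusted p = 0.022 in edgeR. It was the main part of the smooth muscle and pericyte list in members, and the list also held Notch3 (2.77, 117, 6.71, 15.5, 52.8 and 22.8 CPM in members, 2.14, 59.97, 1.18, 2.91, 42.5 and 24 CPM in Myog-zero cells) and Cnn1 and Myh11 at or near 0. The sum of the list was 582 to 820.3 CPM in members against 21.3 to 430.2 CPM in Myog-zero cells. Differentiating skeletal muscle cells are known to express Acta2 too. In contractile-high cells Acta2 was 1730, 4236, 3119, 3113, 2305 and 3354 CPM, above members in all 6. The log2 difference of members from contractile-high cells was -2.32 ± 0.20 (SE), adjusted p = 8.61e-04 in edgeR. The part of other cells in the rise of Acta2 in members was not tested. The fibroblast list had no common direction (87.4 to 232 CPM in members, 68.4 to 250.1 CPM in Myog-zero cells). Scx, a tendon cell factor looked up after its values were seen, was 241, 378, 296, 286, 372 and 286 CPM in members and 116, 253, 201, 121, 289 and 203 CPM in Myog-zero cells, higher in all 6 (log2 rise of 0.59 ± 0.08 (SE), adjusted p = 0.0068 in edgeR). It supplied nearly all of the tendon cell list, in which Tnmd and Thbs4 were at or near 0, and the part of other cells in its rise was not tested.

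Outside the lists, the 10 largest rises with a mean above 4 on the log2 CPM scale were Nmrk2 (2.33), a muscle kinase of NAD synthesis, Arpp21 (2.31), the MYC relative Mycl (1.91), the ankyrin Ank1 (1.90), the imprinted Mest (1.71), C1qtnf3 (1.69), Inpp4b (1.67), Cdk5r1 (1.61), Zbtb18 (1.59) and Dlg2 (1.56). Nmrk2 was 9.25, 7.19, 0.24, 15.5, 194 and 1.01 CPM in members, so its mean level came mainly from old 2. Arpp21 in young 3 had 1 UMI in members and 0 in Myog-zero cells. Zbtb18, a repressor that acts downstream of MyoD, was 35.1, 48.1, 26, 42.6, 53.3 and 38.4 CPM in members and 6.58, 17.1, 8.04, 6.2, 16.3 and 17.9 CPM in Myog-zero cells, and no member value lay under any Myog-zero value. The 8 largest falls were Serpinb2 (-1.63), Prl2c2 (-1.44), Nefl (-1.23), Cacnb2 (-1.19), Fxyd5 (-1.12), Ebf1 (-1.10), Ier3 (-1.10) and Ccn2 (-0.99). Serpinb2 had 2, 1031, 0, 7, 1 and 21 UMIs in members, most of them in young 2. In old 1, outside the fit, it was higher in members (27.1 against 18.8 CPM), and Ebf1 was nearly equal (31.0 against 30.9 CPM). Ccn2 is a target of the YAP growth pathway, and its level was 38.8, 16.2, 1.8, 3.87, 0.842 and 19.97 CPM in members against 51.7, 43.6, 3.44, 30.2, 2.2 and 33.6 CPM in Myog-zero cells.

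Inside the members, levels were followed along the Myog count of a cell (2, 3 to 5, 6 to 10 and over 10 UMIs), which is a description. Myod1 was 312, 513, 91.4, 639 and 898 CPM at 2 Myog UMIs and 294, 809.5, 453, 962 and 1185 CPM at over 10, in young 1, 2, 3, old 2 and old 3. It climbed in each but young 1, where 7 cells held over 10. Dll1 was 27, 20.4, 4.95, 51.7 and 39.3 CPM and 24.5, 54.3, 29.9, 86 and 71.2 CPM in the same bins. In contractile-high cells Dll1 was 13.2, 33.2, 32.1, 46.5 and 52.6 CPM, lower than at over 10 Myog UMIs in all but young 3. Cdkn1a was 929.8, 519, 157, 2351 and 67.1 CPM and 1354, 918, 533, 3466 and 84.8 CPM, with old 3 low throughout. Pax7 was 12, 51.8, 0, 23.1 and 35.7 CPM and 24.5, 37.7, 0, 12.3 and 35.2 CPM, without a shared direction.

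**Figure D4:**
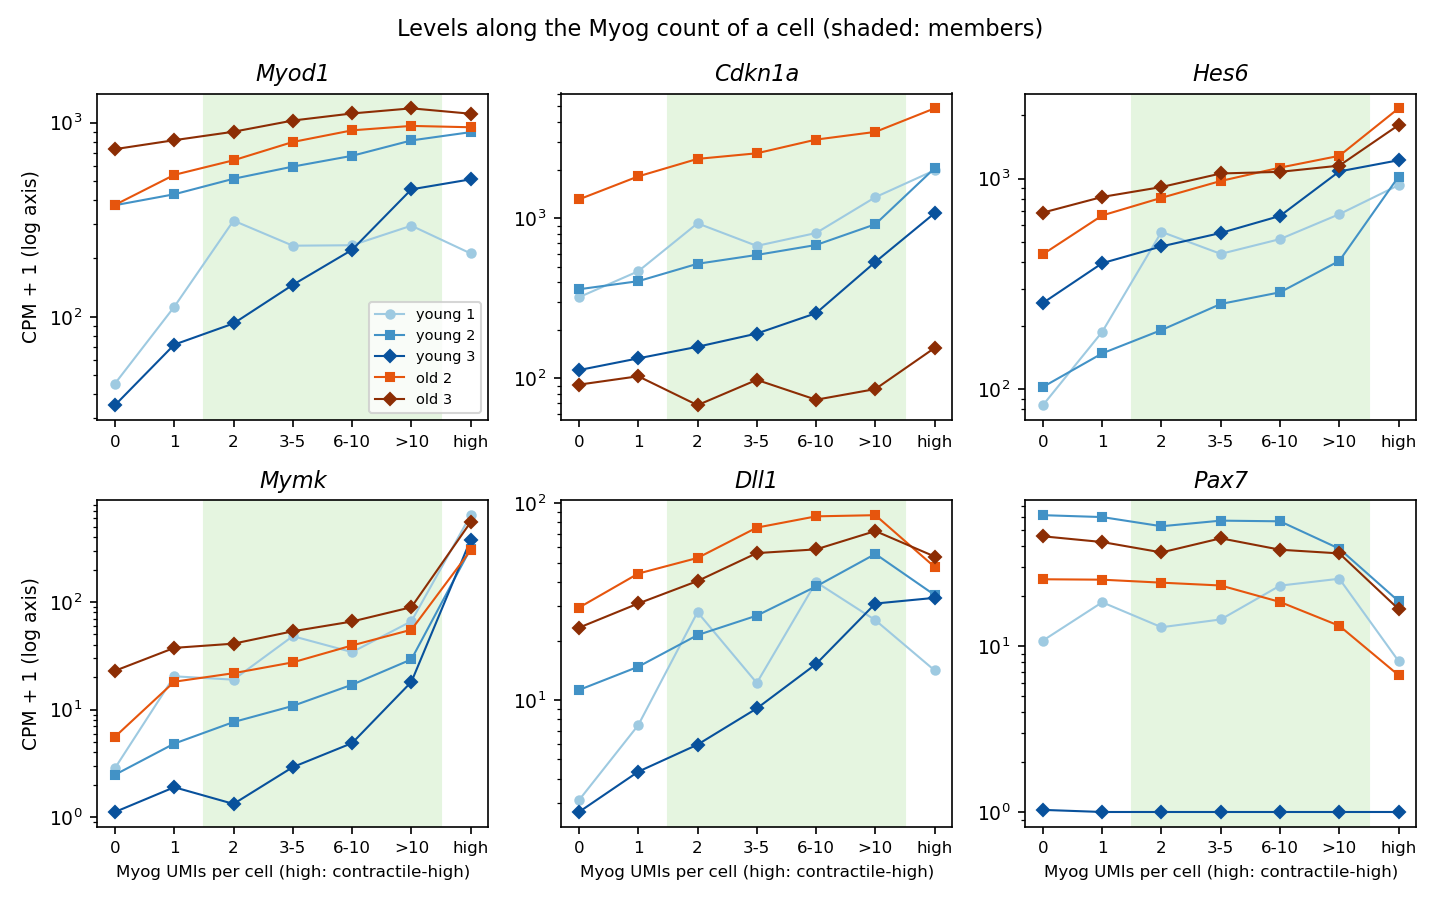
Level of 6 genes (CPM + 1, log axis) along the number of Myog UMIs in a cell and in contractile-high cells (high), for the 5 populations with 30 or more members, whose range is shaded. Hes6 and Mymk are higher at over 10 Myog UMIs than at 2 in all 5 and Dll1 in 4, and Cdkn1a of old 3 stays at 67.1 to 154.1 CPM.

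Members and contractile-high cells were separated by the contractile limit, so genes of the sarcomere, calcium store and energy lists describe that split and support nothing. The same members stand in both comparisons. Of 11628 genes tested in the same kind of fit, 2347 were higher in members (20.2%) and 1973 lower (17%). Sarcomere genes fell furthest: 30 of 33 were lower, with a median of -3.66, and Tcap was -6.84 and Casq2 -6.42. Of the other lists, 48 of 52 genes of G2 and mitosis and 32 of 42 S-phase genes were higher in members, with medians of 0.88 and 0.64 against 0.05 over all genes. Top2a, looked up after its values were seen, was 48.1, 154, 298, 128, 49.5 and 183 CPM in members and 37.7, 41.8, 150.3, 67.1, 20.2 and 128 CPM in contractile-high cells.

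Progenitor genes stood higher in members than in contractile-high cells in 10 of 15 cases, with 2 lower. Pax7 was 7.12, 17.7, 0, 2.58, 5.67 and 15.7 CPM in contractile-high cells, a log2 difference of 1.28 ± 0.12 (SE), adjusted p = 1.17e-04 in edgeR. Notch3 (1.29), Met (1.04), Cd34 (1.16) and Egfr (1.11) were among the others, and 13 of 25 matrix genes were higher with 1 lower. Without old 3 there were 7 higher matrix genes. The log2 difference of members from contractile-high cells was -1.46 for Cdkn1a, -4.18 for Mymk and -3.44 for Mef2c, all past the threshold. Dll1 did not pass (-0.05 ± 0.28 (SE), adjusted p = 0.906, edgeR). The 6 largest differences in favour of members by the naming rule, Vav3 (1.52), Eps8 (1.47), Cd24a (1.38), Smoc2 (1.36), Arhgap22 (1.34) and Nrp2 (1.32), were found in 5 of 5 populations. Over Myog-zero cells none of these 6 was raised: the log2 differences were -0.19, -0.93, -0.43, -0.44, -0.20 and -0.13 in that order. Of these only the fall of Smoc2 passed (adjusted p = 0.023, edgeR). Nrp2 is a receptor for semaphorins.

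**Figure D5:**
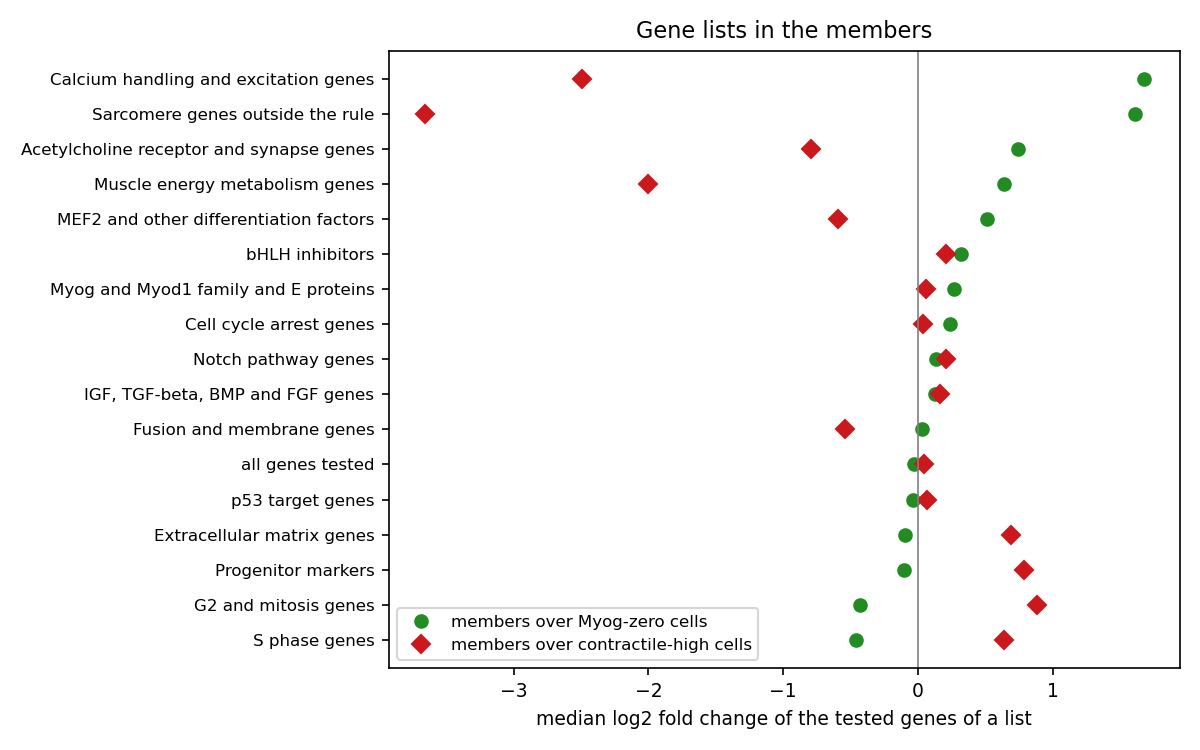
Median log2 fold change of the tested genes of each list in members over Myog-zero cells (circles) and over contractile-high cells (diamonds). Calcium and sarcomere genes lie between the 2 classes at 1.68 and 1.61 over Myog-zero cells, and the cycle lists lie below Myog-zero and above contractile-high cells.

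Old and young members were compared in the 3 young and 2 old populations with enough members, with the gene list as a term. Only young 1 had the shorter list among them, so that term took it up. The contrast of ages then rested on young 2, young 3, old 2 and old 3. No gene passed in edgeR of 12289 tested (0%), with 654 at an unadjusted p under 0.05. DESeq2 called 83 higher and 39 lower. The biological coefficient of variation was 0.489, against 0.110 between classes within populations, so differences between populations were large. With old 1 included and the replicate number as a block, 10 genes were higher and 2 lower, among them Cyba and Gpx3. The labels do not state that pairing. For the difference between old and young in the step from Myog-zero cells to members, no gene of 12797 passed (0%) in edgeR, 356 had an unadjusted p under 0.05, and DESeq2 called 12. With 2 or 3 populations a side, the data cannot show that the ages act alike. Replicates are separate populations by label, and whether they come from separate mice is not stated.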

How the data were processed

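The authors deposited raw UMI counts per gene and barcode for 6 samples (1 per population), made with Cell Ranger 7.0.0 for young 1 and old 1 and 7.2.0 for the other 4, per the file headers. The submitters' processing notes name Cell Ranger, Seurat and mm10. Treatment of intronic reads and doublets is not given in the sources used here. The 7.0.0 list held 21849 features and the 7.2.0 list 32285, and the 21485 shared identifiers were used.

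Of 62849 barcodes, 801 were under 1000 UMIs and 373 over 15% mitochondrial UMIs. Counts were summed per sample and class and fitted in R 4.3.3 by the quasi-likelihood method of edgeR 4.0.16, with the sample as a block, TMM factors, filterByExpr and a threshold of 0.05 on Benjamini-Hochberg p-values. DESeq2 1.42.0 was an alternative. SEs are model-based. The members, lists and naming rule were chosen with earlier results of these data known. Some genes, such as Myf5, Bin1 and Casq2, stand in more than 1 list and count in each. Named genes were 10 preset genes, up to 3 per list by fold, the 10 largest rises and 8 largest falls, and 6 each way against contractile-high cells. Apart from the preset genes, those picked by this rule had 1 sign in every population of the fit that picked them. Further called genes of the lists and genes looked up later are named without that filter. Genes looked up later are called so, and some results are not reported here. Cells were thinned to 5000 UMIs for shares with Mki67 or Top2a and for genes per cell, leaving out 29 members and 1131 Myog-zero cells. On simulated counts with 12780 genes tested the first comparison recovered 86% of log2 changes of 1 and 98% of changes of 2, with 5.64% false calls. The simulation gave every population the same change and every gene the same spread between samples. Its rates do not carry over to effects that differ between populations. The labels number the replicates but do not say that a number pairs a young with an old sample. Same-numbered young and old samples deviated together in member sums (correlations 0.235, 0.229 and 0.185, each over 0.1), and the numbers were used as a block in alternatives. Young 1 and old 1 also share the software version, the shorter gene list and the fewest members, so these correlations cannot show a pairing. The highest correlation of number 2 with another number was 0.109, also over that limit. Intervals cover counting error only.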

Additional observations from a re-analysis of the deposited data

Results flagged for a closer look

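Id3, an inhibitor of bHLH factors looked up after its values were seen, differed in direction between the young and old populations fitted, but not over all 6. It was 705, 1280.4, 1467, 867, 1807 and 2654 CPM in members and 345, 956, 1101, 364, 1998 and 2741 CPM in Myog-zero cells. All 3 young populations had more in members. Old 2 and old 3 had less, while old 1, with 18 members and outside the fit, had more. The mean log2 difference of old minus young effects was -0.6787, with an adjusted p of 1 for the interaction in edgeR over all genes, so it did not pass the correction.

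Myog UMIs were also present in barcodes under the depth limit, which no comparison used. They numbered 10 in young 1, 15 in young 2, 17 in young 3, 10 in old 1, 8 in old 2 and 41 in old 3. Their part in the members was not tested.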

How the results depend on the processing

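Called higher and lower, 518 and 467 genes became 879 and 786 with DESeq2, 340 and 234 on the longer gene list (the same fit as without young 1, since old 1 was already out), 311 and 282 with the contractile limit at 10 per 10000, and 361 and 293 at 10000 to 20000 UMIs. Leaving out each population gave 105 to 417 higher and 83 to 305 lower. Without a filter on low counts they were 425 and 674, and with old 1 included 621 and 630. Without the population as a block (no replicate block) the counts were 0 and 0 (194 at an unadjusted p under 0.05), and against contractile-high cells to 1 and 172. For old against young members, DESeq2 gave 83 higher and 39 lower, and 10 or more members with the replicate block gave 10 and 2. The replicate block alone gave 0, and for the share of members it left 1.88 points (exact permutation p = 1, smallest 0.25). For the difference of the step between ages, DESeq2 called 12 lower, and leaving out a population gave 0 to 2 higher and 0 to 26 lower. The share difference ran from -0.342 to 5.34 points without 1 population. Genes per cell at 5000 UMIs differed by 8.9, by -6.5 without thinning, by -2.67 with 10 or more members and by -0.375 to 17.8 without 1 population. The cause was not tested. Low-level genes such as Mymx, Sox8, Trim72 and Ckm rest on few member counts in young 1, young 3 and old 1. Mymx had 12, 39 and 8 UMIs there, Trim72 had 1 in each and Ckm had 2, 6 and 0.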

Other observations

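Genes with small adjusted p against Myog-zero cells were picked here after their values were seen, and lay outside the lists. Olfml2b rose by 1.35 on the log2 scale (adjusted p = 4.23e-04, edgeR), with single-population differences from 0.72 to 1.49. Ncoa1, a nuclear receptor coactivator, rose by 0.90, and Asb2, a ubiquitin ligase subunit of muscle, by 3.07. Nrg1, the neuregulin gene, fell by 0.85. Mitochondrial UMIs took 0.214 ± 0.173 percentage points more in members than in Myog-zero cells (SD, n = 5, higher in 5 of 5, exact paired permutation p = 0.0625, adjusted 0.156).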
